A study of Arabidopsis thaliana with 21 samples.

Results

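The 150 genes described here stood higher in ada2a and in spc than in wild-type Arabidopsis, and did not stand clearly higher in gcn5 or ada2b-c. They were selected on their measured values, from a table of 32548 genes in 21 libraries, by a rule on the mean of the 3 libraries of a genotype. The difference L is log2 of a mutant's mean plus 1, minus log2 of the Col-0 mean plus 1. A gene needed a mean of at least 30 in ada2a and in spc, L of at least 1 in both, and L of at most 0.5 in both gcn5 and ada2b-c. These thresholds were met by 1674 genes, which were ranked by the smaller of their L values in ada2a and spc, and the first 150 were kept. The smaller L ran from 4.16 at rank 1 to 2.158 at rank 150 (AT2G32200). The 3 genes just outside, AT3G01230, AT4G23493 and CLE22, stood at 2.153, 2.152 and 2.15, so no gap separates the members from the genes after them. The highest L of a member was 0.473 in gcn5 (AT2G13430) and 0.429 in ada2b-c (AT3G22240). A further 106 genes with rises as large in ada2a and spc lay above the limit in gcn5 and 33 above that in ada2b-c, the nearest at 0.506 (AT5G09976) and 0.578 (AT3G20340).

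Plants were 30 days old, grown for 12 days on plates and then in soil at 22 °C under a 16 h day and an 8 h night, and total RNA of plants labelled seedlings was sequenced as paired reads. The 7 genotypes had 3 libraries each: the wild type Col-0, the single mutants gcn5, ada2b-c, ada2a and spc, each labelled -/-, and 2 double mutants labelled -/- for both loci, ada2b-cada2a and ada2b-cspc. The labels do not give the kind of mutation, the gene behind the name spc, or whether the 3 libraries came from different plants. A p-value therefore measures only the spread between libraries, pooled over the genotypes, and this spread may be technical. The deposited values are normalised signals that are not whole numbers, and the depth behind them is unknown. Values below are given for libraries 1, 2 and 3 in that order, and the labels do not say what a replicate number marks.

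GCN5 is a histone acetyltransferase that works in the SAGA coactivator complex, where ADA2-type adaptor proteins hold it and raise its activity on nucleosomes. Acetylated histone tails are a mark of active promoters, and Arabidopsis has a pair of ADA2 proteins, ADA2A and ADA2B. GCN5 (AT3G54610) had a Col-0 mean of 372 ± 51.0, and the mutant means, listed as gcn5 first, ada2b-c second, then ada2a, spc, ada2b-cada2a and last ada2b-cspc, were 275 ± 14.9, 745 ± 83.6, 331 ± 95.8, 285 ± 34.9, 528 ± 95.4 and 562 ± 72.1 (SD, n = 3 throughout). ADA2A (AT3G07740) had means of 66.9 ± 21.3, 133 ± 63.5, 816 ± 34.2, 32.0 ± 22.1, 43.1 ± 8.59, 3.48 ± 3.36 and 579 ± 78.7 in the same order. ADA2B (AT4G16420) had means of 494 ± 213, 540 ± 274, 583 ± 27.4, 215 ± 52.0, 127 ± 73.8, 323 ± 55.7 and 411 ± 62.4. The lower ADA2A mean in ada2a than in Col-0 did not pass (-1.18 ± 0.48, limma adjusted p = 0.0539), whereas ada2b-cada2a was lower than ada2b-cspc by far more than the spread (-7.25 ± 0.48, adjusted p = 2.17e-08). Column totals, in units of 1e6, were 39.3 to 40.4 in Col-0, 41.6 to 58.7 in ada2a and spc, and 31.9 to 36.2 in gcn5. In the ada2b-c mutants, single and double, they were 27.4 to 31.7. The leaf markers, 7 genes, summed to 1548000 to 1876000 in Col-0, 1607000 to 2508000 in ada2a and 1223000 to 1300000 in spc. The sums were 537100 to 704400 in gcn5, 231400 to 259400 in ada2b-c, 313200 to 375900 in ada2b-cada2a and 286000 to 338900 in ada2b-cspc. The seed markers were listed at 0 in Col-0.

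Across genotypes the members formed an ordered series. The median of the 150 members' mean values was 24.95 in Col-0, 182.5 in ada2a and 165.2 in spc, while gcn5 had 8.14, ada2b-c 3.67, and the double mutants 3.35 (with ada2a) and 3.86 (with spc). The rule fixed the rise in ada2a and spc, but of the other genotypes it only asked that gcn5 and ada2b-c be no more than slightly above Col-0. Most members had a mean below Col-0 there: gcn5 had a lower mean than Col-0 for 123 of 150, ada2b-c for 146, ada2b-cada2a for 144 and ada2b-cspc for 135. L was below -1 for 87, 131, 118 and 114 of them in the same order. The gcn5 and Col-0 libraries overlapped in 79 members, and in 71 every gcn5 library was lower (24.44% of all genes tested). The median L was 2.68 for ada2a and 2.66 for spc, against -1.23 for gcn5, -2.46 for ada2b-c, and -2.38 and -2.30 for ada2b-cada2a and ada2b-cspc. Among all 17877 genes with a mean of at least 30 in ada2a and spc, the median L lay between -0.204 and -0.001 in each of the 6 mutants.

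**Figure D1:**
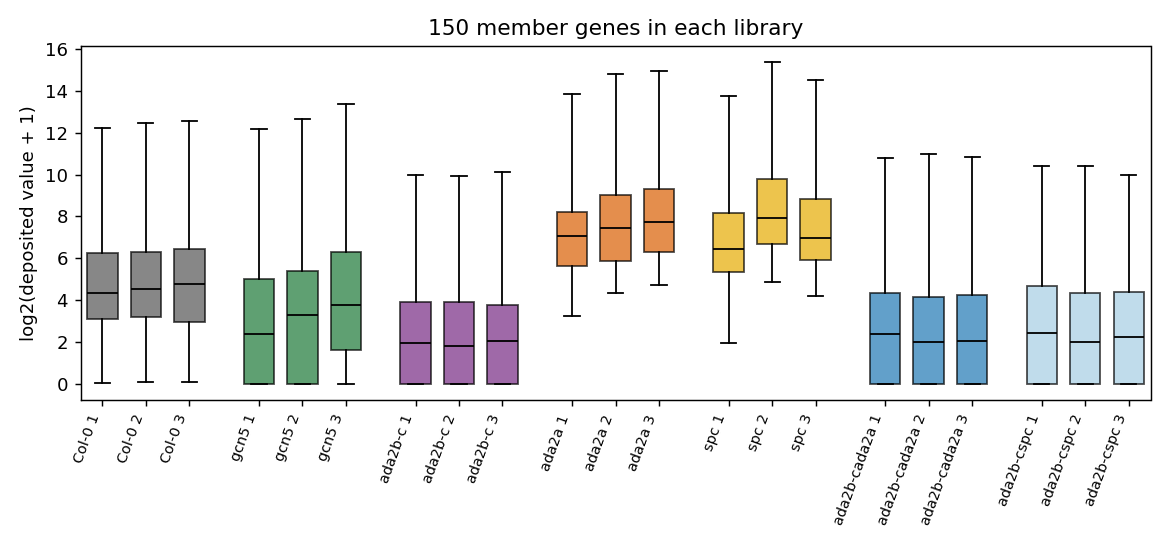
Values of the 150 members in each of the 21 libraries, on a log2(value + 1) axis; boxes span the quartiles, the line is the median and whiskers reach the lowest and highest member. The ada2a and spc boxes stand above those of Col-0 by the rule, and the 9 libraries that carry the ada2b-c mutation stand below Col-0.

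In the double mutants the members stood lower than in ada2a and spc. The high values of those 2 groups chose the members, so the rule itself favours a difference in this direction. All 150 members had a lower mean in both double mutants than in either ada2a or spc. The 6 libraries of the double mutants all listed 25 members at 0, and all 9 libraries with the ada2b-c mutation listed 15 members at 0. Of all 32548 genes, each double-mutant library listed 10348 to 10574 at 0. Every Col-0 library listed 9029, every ada2a library 8441 and every spc library 8170. The sources used here do not explain these equal numbers, so zeros may not be comparable between genotypes. With log2(value + 1) fitted by limma over 23290 genes, 149 members were lower in ada2b-cada2a than in ada2a and 148 lower in ada2b-cspc than in spc, where 38.1% and 39.1% of all genes tested were called lower. Against Col-0, 106 were lower and none higher in ada2b-cada2a by limma (all genes 32.1% and 30.4%; none was higher at an unadjusted p under 0.05 either) and 101 lower and 2 higher in ada2b-cspc (all genes 33.3% and 31.4%). Each of these comparisons shares a group with the rule, so the counts describe the members and nothing is read from them. The 2 higher in ada2b-cspc were AT3G22240 and UMAMIT33. When the libraries' length slopes entered the fit as covariate, 9 were higher and 27 lower in ada2b-cada2a than in Col-0, and 17 higher and 20 lower in ada2b-cspc. Of all 23290 genes, that fit called 3993 higher and 5639 lower in ada2b-cada2a, and 4109 and 5850 in ada2b-cspc. The larger share of lower members in the main fit was thus not kept there.

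The single mutants that the rule held down were counted in the same way. In gcn5, 59 members were called lower than in Col-0 (all genes 18.7%) and in ada2b-c 114 (all genes 33.6%), and none was called higher in either by limma (none at an unadjusted p under 0.05), where 15.6% and 32.4% of all genes were. The upper limit of the rule fixed the absence of higher members, and with the length slope as a covariate 7 were higher and 20 lower in ada2b-c. Of all 23290 genes, 4081 were called higher and 5922 lower in that fit, so the larger share of lower members was not kept. For comparison, the mirror set, built from the same thresholds with the direction turned, holds 150 genes lower in ada2a and spc. Its median L was -0.08 for gcn5 and 1.37 for ada2b-c, and 0.94 and 1.04 for ada2b-cada2a and ada2b-cspc.

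A length trend runs through these libraries and moves with the members. A line fitted to the deviation of each gene from its mean against log2 transcript length gave a slope for each library. The slopes were -0.222, -0.342 and -0.63 in Col-0, 0.205, -0.013 and -0.642 in gcn5, -0.799, -0.911 and -1.28 in ada2a and -0.75, -1.486 and -1.108 in spc. The 9 libraries with the ada2b-c mutation had slopes from 0.687 to 1.059. The slopes of Col-0, of ada2a and spc, and of the ada2b-c mutants thus did not overlap. A fit with the slope as a covariate estimates its effect from differences within genotypes, and cannot fully separate slope from genotype. A negative slope means that short transcripts had relatively high values in that library. Within ada2a, within spc and within gcn5 the library of lowest slope had the highest median deviation of the members, at 3.60, 3.93 and -0.174.

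**Figure D2:**
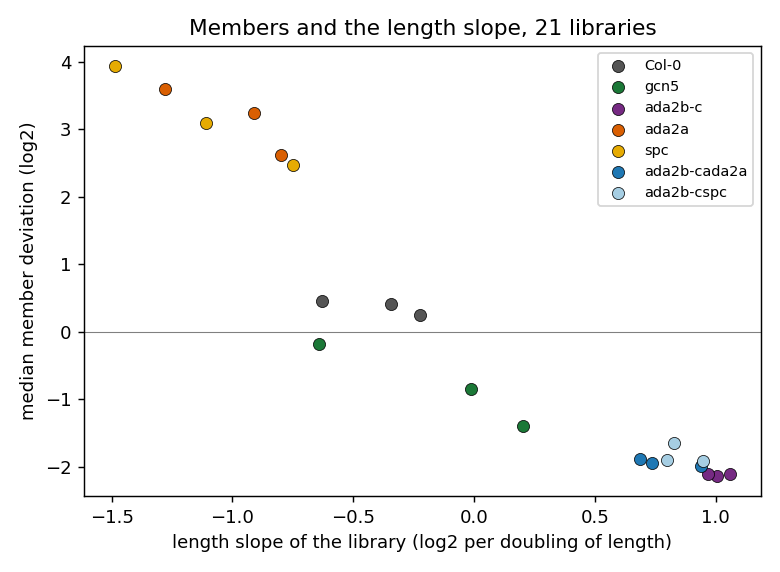
Length slope of each of the 21 libraries (log2 per doubling of transcript length) against the median deviation of the 150 members from their gene means (log2), 1 point per library, coloured by genotype. Both axes come from the same libraries, and ada2a and spc lie at the upper left while the ada2b-c mutants lie at the lower right.

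The members are short genes. Their median transcript length was 830.5 bp against 1620 bp for all genes tested and 2422 bp for the mirror set. Transcripts of up to 1000 bp made up 111 members, 74.0%, against 20.42% of genes tested, and 81 members (54.0% against 19.93%) had a single exon. The median length of the 137 encoded proteins was 131 amino acids against 361, and 65 of them (47.45% against 8.07%) had at most 120. GC content was 36.8% against 41.16%. The share of genes that met the thresholds fell from 44.16% of those up to 500 bp and 32.82% of those over that and up to 1000 bp to 0.857% of those over 2000 bp. Over all genes of these length classes, members or not, the median L in ada2a was 1.38, 1.05 and -0.484, and in spc 1.40, 1.08 and -0.683.

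**Figure D3:**
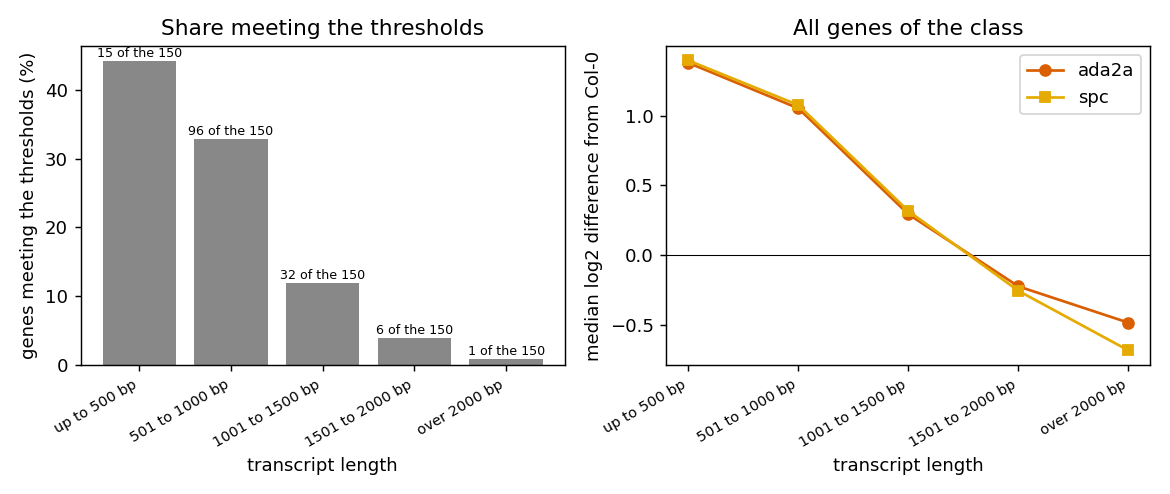
Left, the percentage of genes with a mean of at least 30 in ada2a and spc that met every threshold, in 5 classes of transcript length, with the number of the 150 members in each. Right, the median L of all genes of each class in ada2a and spc, which falls from above 1 in the shortest class to below 0 in the classes over 1500 bp.

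When a spline over transcript length and GC content was subtracted from each library, all 150 members still had corrected differences above 0 in both ada2a and spc, with medians of 1.61 and 1.53. Of them 85 still met every threshold, 34 had corrected differences of at least 2 in both mutants, and 112 stayed below Col-0 in ada2b-c. The difference in ada2a or spc dropped under 1 in 43 members and that of gcn5 or ada2b-c passed 0.5 in 29, with 7 in both counts. All 6 AP2/ERF members and all 5 zinc finger members still met the thresholds, and none of the 4 ROTUNDIFOLIA-like, 4 cysteine-rich transmembrane or 3 calcium-sensor members did. The part of the length trend in the members' values was not tested beyond these figures.

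Groups of related genes among the members were formed from the words of their annotated products after the values had been seen, so their counts are descriptive. Leaving the uncharacterized proteins out, the classes took in 75 of the 150 members. All 150 members were called higher in ada2a and in spc, as the rule all but requires, where 19.8% and 21.7% of all genes tested were called higher and 19.9% and 25.7% lower. Every ada2a library lay above every Col-0 library in 150 members, and every spc library in 146. Of all genes tested, 25.35% and 25.19% did so. The rule nearly fixes this as well, so where it is said of single members below it only describes them. Of the 4755 tested genes up to 1000 bp, 2018 were called higher and 94 lower in ada2a, and 2061 and 123 in spc, which is the scale for the short families below.

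Several classes hold small secreted peptides. The RALF-like peptides, secreted signals that act through receptor kinases of the FERONIA family and alkalinise the cell wall, had 5 members among 17 tested, and 13 of the 17 were called higher in ada2a and 12 in spc, with none lower. RALFL4, which acts in pollen tube growth, had 119, 161 and 117 in ada2a and 56.4, 192 and 61.5 in spc against 21.3, 20.6 and 7.95 in Col-0. RALFL8 had 167, 139 and 136 in ada2a, 73.6, 127 and 69.4 in spc and 19.2, 19.4 and 6.84 in Col-0. No library of ada2a or spc came down to the Col-0 range for either gene. RALFL8 (AT1G61563, chromosome 1, 22714921 to 22715448, minus strand) and RALFL9 (AT1G61566, 22717060 to 22717610, minus strand) are neighbours 1611 bp apart in the TAIR10.1 annotation. RALFL9 had 35.3, 40.5 and 61.9 in ada2a, 20.1, 60.8 and 19.99 in spc and 7.42, 0.13 and 7.66 in Col-0, and both genes were listed at 0 in all 6 double-mutant libraries. The sequences before their starts are shown because they are alike: 94.0% of the last 100 bases matched when shifted by 1 base, with a longest shared run of 42 bases. The 250 bases before each annotated start, read 5′ to 3′ on the gene's strand from RefSeq TAIR10.1, have TATAAA on either strand in capitals, nearest to the start at 30 bases before it in RALFL8 and 31 in RALFL9.
RALFL8 chr1:22715449-22715698 minus strand: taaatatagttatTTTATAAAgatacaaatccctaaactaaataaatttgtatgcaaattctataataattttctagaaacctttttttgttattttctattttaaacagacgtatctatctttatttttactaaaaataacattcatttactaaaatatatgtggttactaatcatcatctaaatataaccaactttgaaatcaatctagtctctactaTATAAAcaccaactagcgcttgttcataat
RALFL9 chr1:22717611-22717860 minus strand: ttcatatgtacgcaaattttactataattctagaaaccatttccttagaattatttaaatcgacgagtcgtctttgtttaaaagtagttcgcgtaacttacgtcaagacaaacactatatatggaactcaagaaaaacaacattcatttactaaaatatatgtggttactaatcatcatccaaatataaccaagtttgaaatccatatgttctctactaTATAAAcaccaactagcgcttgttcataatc
An antisense gene of the annotation, AT1G61565, overlaps both and was listed at 0 throughout.

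The defensin-like peptides, small cysteine-rich secreted proteins related to antimicrobial defensins, had 8 members among 57 tested, of which 31 were called higher in ada2a and 34 in spc and none lower. LCR72 had 77.3, 79.99 and 60.4 in ada2a and 30.8, 125 and 42.1 in spc against 12.7, 3.59 and 2.34 in Col-0. LCR73, its neighbour 1031 bp away, had 21.7, 22.6 and 66.7, 35.1, 62.9 and 17.5 and 6.36, 3.52 and 3.37. LCR17 had 80.2, 102 and 108, 44.8, 109.6 and 104 and 17.0, 13.8 and 8.98 in the same genotypes. In these 3 genes every library of ada2a and spc exceeded every library of Col-0, and in the double mutants LCR72 and LCR17 were listed at 0. LCR11 and AT3G59930 were 2 of the 3 members whose L in ada2a exceeded that in spc by more than 1, at 3.61 against 2.34 and 3.74 against 2.26, and AT5G37478, a protein of the TPX2 family of microtubule regulators, was the other at 4.93 against 3.90.

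Self-incompatibility S1 family proteins, named for a stigma protein that rejects self pollen in the poppy Papaver rhoeas, had 4 members among 18 tested, of which 12 were called higher and none lower in ada2a and 11 higher and 1 lower in spc. AT2G04115 had 53.3, 27.2 and 42.4 in ada2a, 4.02, 63.4 and 59.8 in spc and 0.036, 5.57 and 2.24 in Col-0, so spc replicate 1 overlapped Col-0. The ROTUNDIFOLIA-like peptides, small peptides that limit cell proliferation when overproduced, had 4 members among 18 tested, with 15 called higher in ada2a, 12 in spc and none lower. RTFL21 had 2015, 4465 and 4601 in ada2a, 1714, 5974 and 3060 in spc and 539, 672 and 1063 in Col-0, and lower values in gcn5 (172, 238 and 458) and ada2b-c (50.7, 46.8 and 35.8). RTFL18 and RTFL20 were listed at 0 in all libraries of gcn5, ada2b-c and both double mutants. AT1G47485, a C-terminally encoded peptide, had 52.9, 53.4 and 119 in ada2a, 51.6, 108 and 82.7 in spc and 20.2, 17.2 and 6.83 in Col-0.

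Cell-wall proteins formed the next group. Arabinogalactan proteins, heavily glycosylated proteins of the cell surface, had 5 members among 48 tested, with 31 called higher in ada2a, 27 in spc and none lower. AGP13 (AT4G26320, chromosome 4, 13317053 to 13317640, minus strand, a single exon), at rank 1, had 335, 726 and 771 in ada2a and 249, 756 and 465 in spc against 27.8, 17.5 and 34.2 in Col-0. It had 1.65, 0 and 6.34 in gcn5, had 0 throughout ada2b-c, and reached at most 3.37 in a double mutant. AGP14 had 393, 714 and 878 in ada2a, 315, 842 and 506 in spc and 111, 111 and 106 in Col-0. Both genes show the full series, from ada2a and spc down through Col-0 and gcn5 to the ada2b-c mutants. AGP23, best known from pollen, had 304, 199.9 and 264, 114, 322 and 125 and 23.6, 36.8 and 36.5. AGP22 had 253, 503 and 625, 299, 816 and 436 and 80.1, 61.4 and 115. For all of these the lowest library of ada2a or spc lay above the highest of Col-0. The invertase or pectin methylesterase inhibitors, which restrain sugar release or pectin remodelling in the wall, had 4 members among 74 tested, of which 22 were called higher and 1 lower in ada2a and 27 and 2 in spc. AT1G10770 had 539, 876 and 895 in ada2a, 412, 1228 and 608 in spc and 154, 144 and 158 in Col-0. EXLA3, an expansin-like protein, had 436, 561 and 867, 750.0, 1311 and 919.5 and 89.8, 115 and 164.

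Hormone and stress regulators included JAZ7 and JAZ8, members of the JAZ family of repressors of jasmonate-responsive transcription factors. JAZ7 (AT2G34600, chromosome 2, 14573030 to 14573952, plus strand) had 145, 206 and 229 in Col-0, 934, 1531 and 2141 in ada2a and 2175, 7142 and 3275 in spc. JAZ8 (AT1G30135, chromosome 1) had 23.7, 64.4 and 75.1 in Col-0, 274, 537 and 620.2 in ada2a and 639.5, 2602 and 1054 in spc. Every spc library was above every ada2a library for both genes, and L was 4.43 in spc against 2.98 in ada2a for JAZ7 and 4.69 against 3.11 for JAZ8. Unlike most members they were not low in gcn5, with 177, 185 and 268 for JAZ7 and 29.5, 61.6 and 104 for JAZ8, but both were low in ada2b-c, with 17.9, 28.8 and 42.9 and 12.2, 14.2 and 5.32. Of all members, 88 had a higher L in spc than in ada2a, and in 7 the gap exceeded 1: JAZ8, GRI, JAZ7, ddf2, AT5G36925, AT2G34000 and AT2G32190. The 250 bases before each start are shown because both hold the G-box CACGTG, the palindromic element bound by bHLH factors of the MYC type, 34 bases before the start of JAZ7 and 10 before that of JAZ8. Capitals in JAZ8 also mark TATAAA on the forward strand and TTGACC, the W-box, on the reverse strand.
JAZ7 chr2:14572780-14573029 plus strand: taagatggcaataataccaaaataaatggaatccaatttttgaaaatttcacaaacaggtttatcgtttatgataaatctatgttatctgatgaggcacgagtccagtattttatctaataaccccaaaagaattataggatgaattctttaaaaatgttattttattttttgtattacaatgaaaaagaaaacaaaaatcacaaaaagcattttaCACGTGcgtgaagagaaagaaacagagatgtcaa
JAZ8 chr1:10596102-10596351 plus strand: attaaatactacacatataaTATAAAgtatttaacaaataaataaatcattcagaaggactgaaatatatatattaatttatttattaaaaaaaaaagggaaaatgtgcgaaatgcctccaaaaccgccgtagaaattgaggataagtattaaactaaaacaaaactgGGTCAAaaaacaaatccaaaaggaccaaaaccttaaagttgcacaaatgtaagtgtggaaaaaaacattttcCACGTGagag
Among members 13 of 150 promoters, 8.67%, held CACGTG, against 8.30% of genes tested and 6.46% of all 37897 promoters of the annotation.

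The other jasmonate genes came from a list of 18, of which 17 were tested, since MYC2 was listed at 0 in every library. Against Col-0, 7 were called higher and 2 lower in ada2a, and 10 higher and 1 lower in spc, JAZ7 and JAZ8 included. JAZ10 had a mean of 319 ± 25.9 in Col-0, 677 ± 74.1 in ada2a and 3119 ± 945 in spc, log2 differences of 1.08 ± 0.21 and 3.24 ± 0.21 (limma adjusted p = 0.00132 and 1.59e-08). OPR3, an enzyme of jasmonate synthesis, rose by 0.64 ± 0.16 in ada2a (limma adjusted p = 0.005) and by 1.52 ± 0.16 in spc (adjusted p = 2.27e-06). AOC1, another enzyme of that path, fell by 1.13 in ada2a (limma adjusted p = 0.00051), and LOX2 fell by 0.95 in ada2a and by 0.76 in spc (adjusted p = 0.0145 and 0.0358). The synthesis genes thus did not move as one. None of these 4 genes is a member; JAZ10 stood at 637 ± 141 in gcn5, above the limit of the rule there.

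AP2/ERF transcription factors had 6 members among 73 tested, with 26 called higher and 3 lower in ada2a and 30 and 3 in spc. DDF1, a DREB-type factor that lowers gibberellin content under stress, had 1444, 1876 and 2368 in ada2a and 1654, 3466 and 2020 in spc against 311, 363 and 447 in Col-0. It had 15.3, 21.5 and 21.6 in gcn5 and 1.59, 17.8 and 7.93 in ada2b-c, and ada2b-cada2a listed it at 0. Its close relative ddf2 had 86.6, 124 and 161 in ada2a, 207, 397 and 242 in spc and 9.69, 23.8 and 8.996 in Col-0, and all 6 double-mutant libraries listed it at 0. The range of DDF1 over the genotypes thus spans from 3466 in an spc library to 0. ERF110, at rank 4, had 19.2, 20.9 and 57.5 in ada2a, 17.9, 43.5 and 51.6 in spc and 2.12, 0.046 and 2.19 in Col-0, and was listed at 0 in the other 12 libraries. The promoters of the DDF pair are shown for comparison with the RALF pair: shifted by 4 bases, 47.9% of 96 bases before the start matched, the longest shared run was 10 bases, and the only element among those searched was TATAAA on the reverse strand of ddf2 (capitals).
DDF1 chr1:4291018-4291267 minus strand: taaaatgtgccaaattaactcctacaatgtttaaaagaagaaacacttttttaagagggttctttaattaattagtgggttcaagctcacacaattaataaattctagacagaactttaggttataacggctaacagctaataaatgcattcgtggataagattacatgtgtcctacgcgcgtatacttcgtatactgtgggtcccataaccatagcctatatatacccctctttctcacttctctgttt
ddf2 chr1:23368417-23368666 minus strand: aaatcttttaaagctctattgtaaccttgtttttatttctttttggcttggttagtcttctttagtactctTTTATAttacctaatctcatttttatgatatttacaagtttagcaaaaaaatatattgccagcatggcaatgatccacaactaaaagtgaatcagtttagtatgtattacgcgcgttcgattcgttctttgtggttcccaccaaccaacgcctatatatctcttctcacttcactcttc
Of 11 other ERF and DREB factors in a list drawn from textbook knowledge, none a member, 6 were called higher and none lower in ada2a, and 6 higher and 1 lower in spc. ERF6 rose by 1.86 ± 0.22 in ada2a (limma adjusted p = 2.92e-05) and by 1.62 ± 0.22 in spc (adjusted p = 4.24e-05), while CBF3 fell by 1.48 in spc (adjusted p = 0.0065).

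The basic helix-loop-helix factors had 5 members of 105 tested, with 36 called higher and 15 lower in ada2a and 32 and 16 in spc. The zinc finger proteins had 5 of 429, with 98 called higher and 71 lower in ada2a and 105 and 113 in spc, so both families held genes of either direction. CES, a factor of brassinosteroid signalling, had 57.3, 46.7 and 53.5 in ada2a, 69.1, 116 and 115 in spc and 8.48, 4.68 and 4.49 in Col-0, and an antisense gene, AT1G25320, overlaps it, with means of 650.3 in Col-0, 371.9 in ada2a and 477.6 in spc. UPB1, a regulator of peroxidases and growth in roots, had 465, 866 and 1136, 416, 1507 and 628 and 147, 105 and 190.3 and, at 115, 151 and 203, overlapped Col-0 in gcn5. MIF2, a mini zinc finger protein, had 579, 988 and 1235, 456, 1466 and 856 and 107, 121 and 83.2, with at most 3.19 in any gcn5 library. UPB1 and MIF2 had L of 2.47 and 3.16 in ada2a, and 0.08 and -5.27 in gcn5. ZAT11, a stress-induced repressor, had 454, 952 and 910.2 in ada2a, 441, 1238 and 599 in spc and 73.8, 104 and 175 in Col-0. The SAUR-like proteins, short auxin-induced proteins that promote cell expansion, had 5 members among 71 tested, with 46 called higher in ada2a, 38 in spc and none lower, and 58 of the 71 were called lower in ada2b-c. AT2G37030 had 123, 160.3 and 160.2, 56.3, 127 and 95.1 and 2.29, 12.8 and 30.6 and every ada2b-c library listed it at 0.

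Transporters of the MtN3 and MtN21 families had 4 members of 59 tested, with 16 called higher and 3 lower in ada2a and 22 and 4 in spc. SWEET9, a sucrose transporter of nectaries, had 86.8, 29.2 and 62.8 in ada2a, 62.5, 43.9 and 20.2 in spc and 4.21, 2.31 and 0.048 in Col-0, and was listed at 0 in every other library. SWEET10, of the same sugar transporter family, had 621, 1039 and 1628, 574, 1645 and 797 and 171, 233 and 193, and at most 8.09 in a double mutant. The cysteine-rich transmembrane module proteins, small proteins linked to stress tolerance, had 4 members among 13 tested, of which 11 were called higher in ada2a and 12 in spc. AT1G05340 had 590.1, 917 and 1320 in ada2a and 804, 2589 and 927 in spc, and its values overlapped between Col-0 (123, 113 and 208), gcn5 (147, 193 and 257) and ada2b-c (155, 119.8 and 110.3). CML38, a calmodulin-like calcium sensor, had 5643, 8698 and 11760 in ada2a, 6308, 21380 and 9673 in spc and 1690, 1533 and 2113 in Col-0, and had 302, 477 and 691 in gcn5 and 46.4, 68.4 and 98.2 in ada2b-c.

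**Figure D4:**
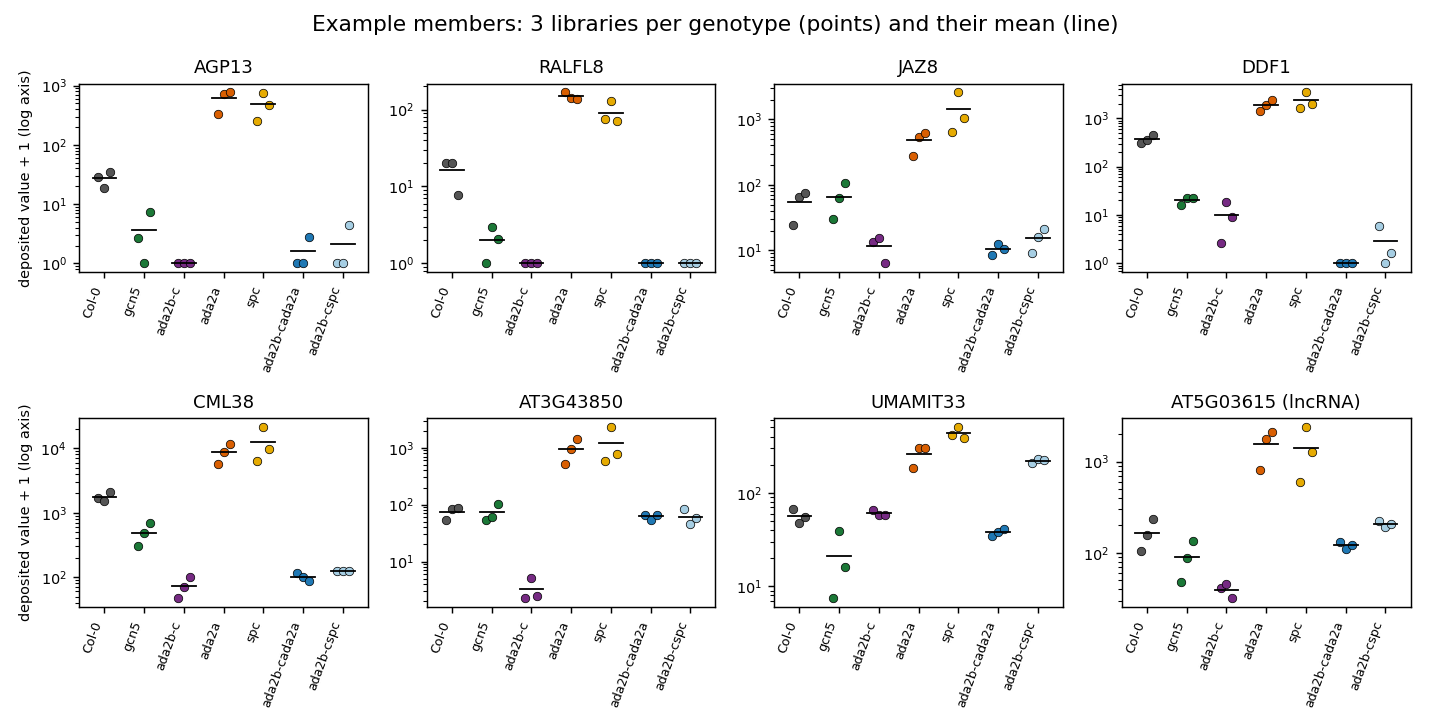
Deposited value plus 1 on a log axis in the 3 libraries of each genotype (points) and their mean (line) for 8 members. AGP13, RALFL8, DDF1 and CML38 are lower than Col-0 in gcn5 and the ada2b-c mutants, JAZ8 and AT3G43850 overlap Col-0 in gcn5, and UMAMIT33 is above Col-0 in ada2b-cspc.

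Some members at the head of the order fall in none of the classes. AT3G54065, annotated as an ankyrin repeat protein and at rank 3, had 41.9, 104 and 124 in ada2a, 73.7, 149 and 51.9 in spc and 8.47, 3.57 and 4.48 in Col-0. AT4G14730, of the Bax inhibitor-1 family of cell death suppressors, had 15.7, 19.8 and 90.5, 44.6, 71.5 and 88.9 and 0.031, 0.067 and 6.43, and the antisense gene AT4G14740 that overlaps it had means of 1868 in ada2a, 1580 in spc and 1448 in Col-0. AT1G70680, a caleosin-related protein of the family that coats oil bodies, had 32.0, 114 and 90.8, 44.6, 118 and 42.1 and 7.41, 3.54 and 3.38. No Col-0 library of these genes reached the lowest library of ada2a or spc. AT5G38760, of the late embryogenesis abundant proteins that accumulate in drying tissue, had 114, 163 and 106 in ada2a, 72.5, 162 and 60.1 in spc and 10.7, 9.22 and 6.72 in Col-0, and was listed at 0 in all 9 libraries with the ada2b-c mutation. AT1G22480, a cupredoxin, had 176, 283 and 442 in ada2a, 85.6, 286 and 122 in spc, 6.54, 20.6 and 20.9 in Col-0 and 4.81, 20.6 and 22.6 in gcn5, so that gcn5 and Col-0 overlapped.

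Genes not annotated as protein coding made up 13 members: 8 long non-coding RNAs, 3 other non-coding RNAs, 1 miRNA gene and 1 small nucleolar RNA gene. AT5G03615, a long non-coding RNA at rank 20, had 801, 1776 and 2137 in ada2a, 596, 2401 and 1266 in spc and 105, 158 and 233 in Col-0. TAS3b, a precursor of trans-acting small RNAs that target auxin response factors, had 44.1, 30.8 and 117 in ada2a, 13.4, 99.2 and 48.5 in spc and 0.086, 11.4 and 13.1 in Col-0, so spc replicate 1 was close to the highest Col-0 library. The gene of miR159a, a miRNA that targets MYB factors, had 16.9, 53.3 and 58.7, 21.3, 47.4 and 29.1 and 7.41, 2.43 and 4.45. These are signals over the annotated precursor, not of the mature miRNA, whose sequence (RefSeq TAIR10.1, chr1:27713234-27713254, minus strand, seed bases 2 to 8 in capitals, written with T) names the product.
miR159a: tTTGGATTgaagggagctcta

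The only comparison whose groups took no part in the rule was that of the double mutants with each other. There limma called no member higher and 2 lower in ada2b-cada2a than in ada2b-cspc, where 0.198% and 0.271% of all genes were called higher and lower. At an unadjusted p under 0.05, 2 members were higher and 14 lower, that is 1.33% and 9.33% of members beside 2.58% and 2.68% of all genes. The median member difference was 0.0. The libraries did not overlap in 4 members that were higher and 14 that were lower in ada2b-cada2a, against 12.48% and 8.44% of all genes tested.

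UMAMIT33 (AT4G28040, chromosome 4, plus strand), an amino acid transporter of the MtN21 family, was the clearer of these genes. It had 33.98, 36.7 and 40.2 in ada2b-cada2a and 205, 227 and 225 in ada2b-cspc, without overlap. The log2 difference was -2.54 ± 0.40 (limma adjusted p = 0.00257), and the adjusted p lay between 0.000408 and 0.0216 under the alternatives, which all kept the call. Its values in ada2b-c were 64.9, 56.8 and 56.8, and those in Col-0 were 66.1, 46.3 and 54.3. It had 6.50, 38.3 and 15.2 in gcn5, 182, 299 and 303 in ada2a and 416, 505 and 385 in spc. In ada2b-cspc it therefore stood between Col-0 and spc, and in ada2b-cada2a below Col-0. An antisense gene, AT4G28050, overlaps UMAMIT33, and the strandedness of the counting is not given in the sources used here. That gene had 672, 864 and 776 in ada2b-cada2a and 685, 707 and 569 in ada2b-cspc, which overlap.

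AT2G06995, a long non-coding RNA, had 0.70, 1.64 and 1.72 in ada2b-cada2a and 11.6, 15.1 and 10.7 in ada2b-cspc, a difference of -2.54 ± 0.46 (limma adjusted p = 0.00949). The call was lost without ada2b-cada2a replicate 1 (-2.31, limma adjusted p = 0.0793) and without ada2b-cspc replicate 2 (-2.40, adjusted p = 0.0666). The cysteine-rich transmembrane genes AT2G32190 and AT2G32200, neighbours 1032 bp apart on chromosome 2, came next. AT2G32190 had 27.2, 10.2 and 34.4 in ada2b-cada2a and 86.5, 80.5 and 64.6 in ada2b-cspc, without overlap, and did not pass (-1.80 ± 0.45, limma adjusted p = 0.0983). It passed after the length and GC correction (-1.84, adjusted p = 0.00135). AT2G32200 had 3.36, 0 and 0 and 24.8, 1.45 and 15.5 (limma adjusted p = 0.232), and passed after the same correction (-2.71, adjusted p = 0.0313) and without ada2b-cspc replicate 2 (-3.66, adjusted p = 0.021).

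**Figure D5:**
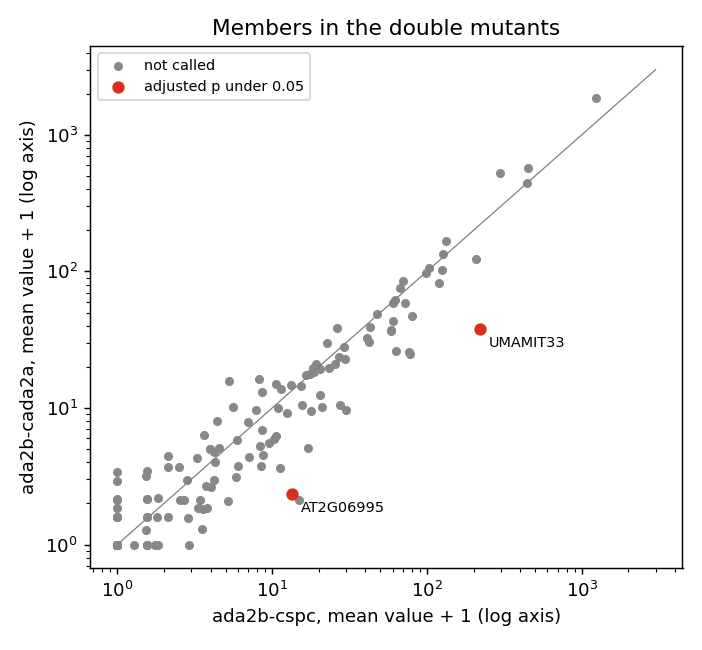
Mean value plus 1 of each member in ada2b-cspc and in ada2b-cada2a, on log axes, with the line of equality. The 2 members with an adjusted p under 0.05, UMAMIT33 and AT2G06995, lie below the line.

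Against ada2b-c itself, which the rule used as an upper limit, a small number of members stood higher in the double mutants. In ada2b-cada2a 15 members were higher and 4 lower (all genes 9.45% and 6.2%), and in ada2b-cspc 18 and 3 (all genes 5.88% and 3.29%). After the length and GC correction the first split was 16 higher and 15 lower, beside 2881 and 2636 of all 23290 genes. The second count of 21 calls dropped to 12 without ada2b-c replicate 2, 13 without ada2b-c replicate 3, 12 without ada2b-cspc replicate 2 and 11 without ada2b-cspc replicate 3. Both comparisons share the ada2b-c libraries. The 15 of 150 in ada2b-cada2a is a share near that of all genes. AT3G43850, an uncharacterized protein at rank 9, had 1.28, 4.06 and 1.52 in ada2b-c, then 65.2, 52.9 and 64.9 with ada2a added and 81.3, 44.4 and 57.0 with spc added. Its Col-0 values were 52.4, 84.1 and 86.3, so both double mutants stood at about the Col-0 level and far below ada2a (514, 952 and 1400) and spc (592, 2317 and 778). AT4G23870, also uncharacterized, had 77.7, 62.9 and 66.4 in ada2b-c, then 418, 526 and 379.7 with ada2a added and 503, 476 and 346 with spc added, against 1606, 2053 and 2038 in Col-0. In this gene the double mutants covered only part of the way back to Col-0. AT1G52245, a dynein light chain, had 18.3, 12.9 and 31.7 in ada2b-c, then 129.7, 88.0 and 96.4 with ada2a added and 82.1, 113 and 113 with spc added. The members that went lower in either were ddf2, DDF1, AT3G59930, AT2G32200 and BCP1, a homolog of a Brassica campestris pollen protein. AT3G59930 had 12.5, 22.9 and 15.1 in ada2b-c, then 5.88, 0 and 0 with ada2a added and 4.14, 1.35 and 0 with spc added.

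Among the members whose deposited values, which are not divided by length, were largest in ada2a, AT5G11070, uncharacterized, had 14650, 28890 and 31930 in ada2a and 13810, 42980 and 23730 in spc against 4782, 5781 and 6118 in Col-0 and 4643, 6545 and 10690 in gcn5. Its ada2b-c values were 999, 994.9 and 1102. AT2G25735, likewise uncharacterized, had 5252, 12190 and 13690, 5367, 18520 and 9425 and 1850, 2432 and 2591. AT4G18260, a cytochrome b561 family protein, had 2532, 4345 and 5607, 2230, 6827 and 3921 and 629, 949 and 1003. Every ada2a and spc library of these 3 genes lay above every Col-0 library.

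Markers of flower and pollen tissue were measured beside the members. The 6 flower markers, MADS-box genes of floral organs, summed to 825.9 to 1075 in Col-0, 1778 to 1975 in ada2a and 2110 to 2397 in spc. Their sums were lower elsewhere, at 375.9 to 511.9 for gcn5, 57.4 to 73.8 for ada2b-c, 194.9 to 236.7 for ada2b-cada2a and 130.8 to 163.4 for ada2b-cspc. Of these 6 genes 2 were called higher in ada2a (PI and SEP3) and 3 in spc (PI, SEP3 and SEP1), and AG, AP3 and SEP2 passed in neither. None was listed at 0 in all Col-0, ada2a or spc libraries. The 8 mature pollen markers, a list added after the values were seen, summed to 144.0 to 356.5 in Col-0, 252.9 to 282.7 in ada2a and 185.0 to 257.9 in spc, which overlap, and 1 of the 8 was listed at 0 in all Col-0 libraries and 1 in all ada2a libraries. This list summed to 63.9 to 123.4 in gcn5 and, unlike the members, to 363.1 to 449.3 in ada2b-c, where ANX1 had a mean of 331. In the double mutants it summed to 182.8 to 274.8 (with ada2a) and 204.8 to 338.5 (with spc). Of the 7 that were tested, AGP11 was higher in ada2a (2.16 ± 0.66, limma adjusted p = 0.0156) and in spc (1.87 ± 0.66, adjusted p = 0.0264), ANX1 was lower in spc (-2.13 ± 0.40, adjusted p = 0.000536), and the others passed in neither. The 6 pollen coat and tapetum markers summed to 698.6 to 930.6 in Col-0, 786.9 to 1702 in ada2a and 873.9 to 1848 in spc, with EXL4 and EXL6 called higher in both mutants and the other 4 in neither. They summed to 1229 to 1480 in gcn5 and 920.9 to 988.3 in ada2b-c. In ada2b-c, LAP6 and TKPR1 stood higher than in Col-0 by 3.17 and 2.04, LAP5 stood lower by 1.63, and GRP17, EXL4 and EXL6 were listed at 0. The 7 root markers summed to 21.2 to 50.6 in Col-0, 36.0 to 70.3 in ada2a and 21.1 to 58.2 in spc. The part of these tissues in the members' values was not tested, and in whole plants fewer cells of a type and less RNA per cell cannot be told apart.

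Genes of flowering time, from a list with no member in it, were also called higher: 8 of 11 tested in ada2a and 6 in spc, with none lower. FT, the mobile flowering signal, rose by 1.34 ± 0.43 in ada2a (limma adjusted p = 0.02) and by 1.80 ± 0.43 in spc (adjusted p = 0.00284). FUL, which acts downstream of it, rose by 1.36 ± 0.28 and 1.51 ± 0.28 (limma adjusted p = 0.0016 and 0.000471). SOC1 rose by 0.91 ± 0.29 in ada2a and 0.77 ± 0.29 in spc (limma adjusted p = 0.018 and 0.034), a direction that turned in spc when the length slope entered as a covariate. The rises were not all shared. TSF had the largest difference in ada2a (2.94 ± 0.57, limma adjusted p = 0.00111), at a mean of only 6.7, and was listed at 0 in Col-0 and spc. SVP, a floral repressor, rose in ada2a (0.85 ± 0.24, limma adjusted p = 0.0104) and did not pass in spc (0.54 ± 0.24, adjusted p = 0.069). The type-A response regulators, negative feedback genes of cytokinin signalling, had 6 called higher and 1 lower of 10 in ada2a and 7 higher and 1 lower in spc. ARR5 rose by 1.97 ± 0.34 and 2.28 ± 0.34 (limma adjusted p = 0.000583 and 9.54e-05), and ARR8 fell by 1.24 and 0.94 (adjusted p = 0.0048 and 0.0178).

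The members were spread over the 5 chromosomes much as all genes tested, with 41 on chromosome 1 (27.33% against 26.5%) and 20 on chromosome 4 (13.33% against 15.25%), and 6 pairs of members lay within 10 kb of each other. In 17 members (11.33% against 26.19% of genes tested) the annotation has an overlapping antisense gene, and without the strand their reads cannot be told apart. In the 300 bases from 250 before to 50 after the start, searched on both strands, TATAAA was in 59.33% of member promoters, 51.24% of those of genes tested and 48.78% of all promoters. The shares in the same order were 6.0%, 2.96% and 2.49% for AAAATATCT, the evening element of clock-controlled genes. They were 4.67%, 17.25% and 13.03% for TGGGCC, the site II element of growth genes, 2.0%, 5.70% and 6.17% for AAACCCTA, the telo-box, and 6.67%, 15.56% and 15.32% for CCGAC, the core of the element bound by DREB factors. GCCGCC, the GCC-box, had 1.33%, 2.59% and 2.72%, which rests on 2 members. TTGACC, the W-box of WRKY factors, had 13.33%, 14.33% and 13.46%, and GAGAGAGA had 6.67%, 8.44% and 7.56%. The 9 members with the evening element include MIF2, LCR73, AT5G51780 and AT5G39240. These are matches of letters, and a base may belong to matches of more than 1 element.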

How the data were processed

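Gene values of 21 libraries, 3 for each of 7 genotypes, were used as deposited. They are a normalised signal: the authors' values are not whole numbers, and whole reads could not be recovered, so no count model was used and the depth is unknown. Per the submitters' processing notes, bcl2fastq, HISAT2 and edgeR were used with TAIR10; the sources used here state no version, counter, annotation, strandedness or scaling. A value of 0 or near 1e-17 is called listed at 0.

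The 150 members, the classes and the lists were chosen with earlier results of these data known. Genes with a mean of at least 1 (23290) entered a limma fit (version 3.58.1, R 4.3.3) on log2(value + 1), each genotype having its own mean, with a mean-variance trend and Benjamini-Hochberg adjustment over all genes tested; a call is an adjusted p under 0.05. All genotypes shared a common estimate of the spread per gene. On this log2 scale the median SD of all genes was 0.279 in Col-0, 0.115 in ada2b-c, 0.426 in ada2a and 0.485 in spc. Fold changes on this scale understate the change of low genes. Tables were made with Python 3.11.15, numpy 2.4.6 and pandas 2.3.3, and figures with matplotlib 3.10.9. The fit was tested on simulated data. Lengths, products, promoters and coordinates come from the RefSeq annotation of TAIR10.1, in which all 32548 loci were found; the authors' table holds no coordinates. For the length and GC correction a spline (df = 5) over both was fitted per library and removed.

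Genes were named by rule: the complex genes, the first 20 members, the 5 with the highest mean in ada2a, up to 4 per class, the members called between the double mutants, the 3 at each side of the last rank and up to 4 called genes per list. GRI, TAS3b, LCR11, AT3G59930, AT5G37478, EXLA3, AT1G47485, BCP1, AT1G52245, OPR3, LOX2, SOC1, SVP, ARR8, AT5G36925, AT2G34000, AT2G13430 and AT5G39240 were named after their values were seen. Alternatives changed the filter, the pseudocount, the scaling, the length correction, the replicates and the replicate block.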

Additional observations from a re-analysis of the deposited data

Results flagged for a closer look

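Differences between the double mutants stood out in 2 members. UMAMIT33 was lower in ada2b-cada2a than in ada2b-cspc by a log2 difference of -2.54 (limma adjusted p = 0.00257), lower in 3 of 3 libraries. AT2G06995 was lower by a log2 difference of -2.54 (limma adjusted p = 0.00949), also in 3 of 3 libraries, and its call was lost when either of 2 libraries was left out.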

How the results depend on the processing

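Depth is unknown, so the counting error of values near 0 cannot be estimated. With equal column totals, 115 of the 150 members met the rule, and 637 genes rather than 1674 met its thresholds. Against Col-0, 143 members were called in ada2a and 145 in spc under that scaling. With the length and GC correction 5 were called between the double mutants, 31 in ada2b-cada2a against ada2b-c, 99 in ada2a, 93 in spc and 64 in ada2b-c against Col-0, and 85 met the rule. With the length slope as a covariate the counts were 7 between the double mutants, 30 in ada2b-cada2a against ada2b-c, 36 and 37 in ada2b-cada2a and ada2b-cspc against Col-0, 51 in ada2b-cada2a against ada2a, 34 in ada2b-cspc against spc, and 87, 60 and 27 in ada2a, spc and ada2b-c against Col-0. SOC1 in spc turned to -0.19 (limma adjusted p = 0.554) there. A mean of at least 30, which fewer members pass, gave 96 in ada2a and 96 in spc against Col-0, 96 in ada2b-cada2a against ada2a, 95 in ada2b-cspc against spc and 38 in gcn5. Fitting only the groups compared gave 135 in ada2a, 125 in spc and 36 in gcn5 against Col-0. Among all genes it called 2824 higher and 1980 lower in ada2a, where the main fit called 4606 and 4629. No filter gave 13 in ada2b-cspc against ada2b-c. The causes were not tested.

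The labels do not say what a replicate number marks, and the main fit paired no libraries. Correlations of same-numbered deviations ran from -0.087 to 0.383, and no comparison had all above 0.1. For gcn5 against Col-0 they were 0.278, 0.087 and 0.383, and for ada2a against Col-0 0.135, 0.043 and 0.267. With a replicate block 0 members were higher and 2 lower between the double mutants, as without it; the block with the length and GC correction gave 5 there, 32 in ada2b-cada2a against ada2b-c, 91 in spc and 63 in ada2b-c against Col-0.

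Leaving out 1 library gave 2 to 3 calls between the double mutants, 14 to 18 and 11 to 16 in ada2b-cada2a and ada2b-cspc against ada2b-c, 98 to 106 and 93 to 97 against Col-0, 148 to 149 and 145 to 148 against ada2a and spc, 129 to 150 in ada2a, 125 to 150 in spc, 44 to 71 in gcn5 and 108 to 115 in ada2b-c. The rule was met by 130 to 150 members, the lowest without ada2a replicate 3 and spc replicate 2, a choice made after seeing the data. Of 220 results for named genes, 106 kept direction and call in every alternative and 39 lost the call when 1 library was left out.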
